A study of Mus musculus with 22 samples.

Results

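The 10 genes described here were listed as synaptic cleft organisers and terminal calcium channels. They encode the matrix and dystroglycan complex of the cleft (Egflam, Dag1, Dmd), the Elfn adhesion proteins (Elfn1, Elfn2) and calcium channel subunits (Cacna1f, Cacna1d, Cacnb2, Cacna2d4, Cacna2d1). They were chosen by name, and each of the 10 symbols matched 1 of the 13812 Ensembl genes measured. Messenger RNA was measured in cells sorted from mouse retina at postnatal days 7, 13 and 30 (P7, P13, P30) as rods, cones and bipolars, and at P13 as rod bipolars and cone bipolars. There were 2 libraries for each of these 11 groups, and 22 in total, made from RNA that was amplified linearly before sequencing. No strain, genotype, treatment, sorting reporter or pooling of animals is stated in the labels, which name the retina, the age and the cells. The series design calls the bipolars ON-bipolars, whereas the sample labels say bipolars. Nothing in the labels ties the pair of libraries of a group to different animals, and the p-values measure only the spread between these libraries, which may be technical.

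Photoreceptors release glutamate onto bipolar dendrites that enter a pocket in the terminal. Pikachurin, the product of Egflam, is secreted into that cleft and binds dystroglycan (Dag1), which dystrophin (Dmd) ties to the cytoskeleton of the terminal. Elfn1 and Elfn2 are leucine-rich-repeat membrane proteins that bind metabotropic glutamate receptors across the cleft. Release is driven by an L-type calcium channel whose pore is Cav1.4 (Cacna1f) in photoreceptors, with a beta subunit (Cacnb2) and an alpha-2-delta subunit (Cacna2d4). Cav1.3 (Cacna1d) and the alpha-2-delta-1 subunit (Cacna2d1) are found more widely in neurons.

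Egflam, Elfn1 and Cacna1f stand for the 3 kinds of protein, and the 250 bases upstream of 1 annotated start of each are shown because all 3 had high RNA levels in photoreceptors. The sequences are from RefSeq on GRCm38.p6, 5′ to 3′ on the strand of the gene, with capitals for the letters TAATC, the core that the photoreceptor factors CRX and OTX2 bind. They lie at chr15:7398396-7398645 on the minus strand, chr5:139907616-139907865 on the plus strand and chrX:7606853-7607102 on the plus strand, the last holding 20 bases of annotated exon.
Egflam: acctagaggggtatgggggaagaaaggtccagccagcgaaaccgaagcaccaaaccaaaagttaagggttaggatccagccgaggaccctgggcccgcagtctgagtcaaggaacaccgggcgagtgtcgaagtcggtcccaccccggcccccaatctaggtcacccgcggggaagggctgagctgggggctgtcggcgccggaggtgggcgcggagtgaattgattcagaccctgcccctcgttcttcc
Elfn1: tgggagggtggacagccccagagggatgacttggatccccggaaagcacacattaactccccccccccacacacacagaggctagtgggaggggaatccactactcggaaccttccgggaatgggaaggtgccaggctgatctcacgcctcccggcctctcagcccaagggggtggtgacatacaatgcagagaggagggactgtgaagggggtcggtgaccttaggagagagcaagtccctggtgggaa
Cacna1f: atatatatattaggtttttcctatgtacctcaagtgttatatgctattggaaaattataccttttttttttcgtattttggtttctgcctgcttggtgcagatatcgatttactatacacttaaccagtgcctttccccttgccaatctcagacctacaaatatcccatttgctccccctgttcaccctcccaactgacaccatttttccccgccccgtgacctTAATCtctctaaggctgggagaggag
TAATC or its reverse complement GATTA was present in 1 of 14 upstream windows of 9 members, that of Cacna1f, where it began at base -26 from the start. The same letters were present in 19.8% of all 32851 mouse windows of 250 bases. The longer TAATCC was in 0 of the 14 windows and in 6.25% of all windows. TGCTGA, a core of the rod factor NRL, was in 0 of the 14 and in 16.1% of all windows, each searched on both strands. TAATCC contains TAATC, and the shorter motif was added after the other motifs had given no match. These matches describe letters only, and Cacna2d4 was not among the windows used. Of the 14 windows, 1 of Cacnb2 and 1 of Cacna1d lay wholly in annotated exons. The windows of Egflam overlapped each other, as did those of Dag1.

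The libraries held 14.4 to 54.4 Mreads over the genes measured, and 174 to 2463 genes per library had no read. Levels are given as CPM (read counts scaled to a common library size) and differences as log2 fold changes. Marker RNA followed the labels: the 7 rod markers summed to 14570 to 30102 CPM in rods, 3215 to 9441 in cones and 122 to 782 in the bipolar types. The 8 cone markers summed to 15935 to 51671 CPM in cones and 23.5 to 443 elsewhere, and the 6 ON bipolar markers to 4371 to 18677 CPM in the bipolar types, 7.48 to 291 in cones and 2.86 to 22.6 in rods. Bipolars at P30 stood apart, with 4109 to 6359 CPM over the 8 Müller glia markers against 173 to 179 at P7 and 713 to 897 at P13. Transcripts of the mitochondrial genome took 28.6% to 38.7% of reads in cones at P30. A gene was called when the limma adjusted p over 13405 genes was under 0.05 and the log2 fold change was at least 1 in size. All 10 genes passed the filter on low values, which asked for at least 1 CPM in both libraries of 1 group, so genes with few reads in 1 cell type entered through another. In sorted bulk RNA, fewer cells of a type and less RNA per cell cannot be told apart.

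**Figure D1:**
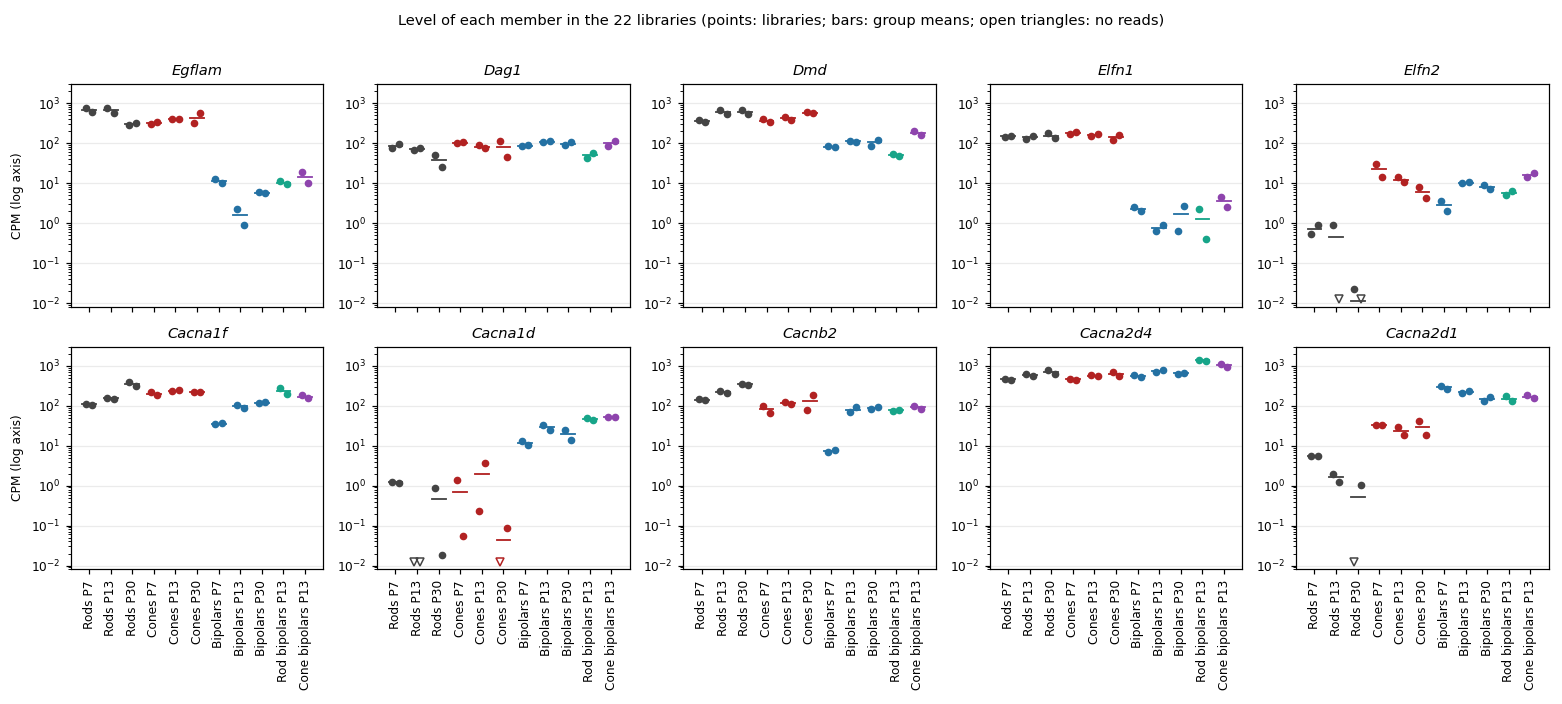
CPM of each of the 10 genes (log axis) in the 11 groups; filled points are libraries, bars are means of 2 libraries and open triangles are libraries with no read. Egflam and Elfn1 lay lower in every bipolar library than in any photoreceptor library, Cacna1d and Cacna2d1 lay higher, and Cacna2d4 was highest in the bipolar subtypes.

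Most of the 10 genes separated bipolars from photoreceptors. Egflam, Elfn1 and Dmd were lower in bipolars than in the mean of rods and cones at every age, Cacna1d and Cacna2d1 were higher at every age, and Cacnb2 was lower at every age. In this comparison 7 of 10 were called at P7, where 22.7% of all genes tested were called. At P13 the count was 6 of 10 against 33.4% of all genes, and at P30 it was 8 of 10 against 35.6%. The median log2 fold change of the 10 genes was -1.29, -0.30 and -0.61 at P7, P13 and P30, and that of all genes 0.12, 0.18 and 0.13. These medians describe a list with members on both sides. With CPM by plain read totals, the calls were 4 higher and 3 lower at P13 and again 4 higher and 3 lower at P30, against 2 higher and 4 lower and then 3 higher and 5 lower.

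Rods and cones differed in fewer of the 10. Elfn2 was called lower in rods at each age, Cacna2d1 at P13 and P30 and Cacna1d at P13, and Cacnb2 was called higher in rods at P30. The counts were 1 of 10 at P7 (12.8% of all genes), 3 of 10 at P13 (21.2%) and 3 of 10 at P30 (20.0%), so the shares of the 10 genes were near those of all genes at each age. Plain totals gave 2 higher and 2 lower at P30, with Cacna1f added, against 1 higher and 2 lower. The cone libraries enter both this comparison and the one with bipolars, as do the rod libraries, so the comparisons share samples.

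**Figure D2:**
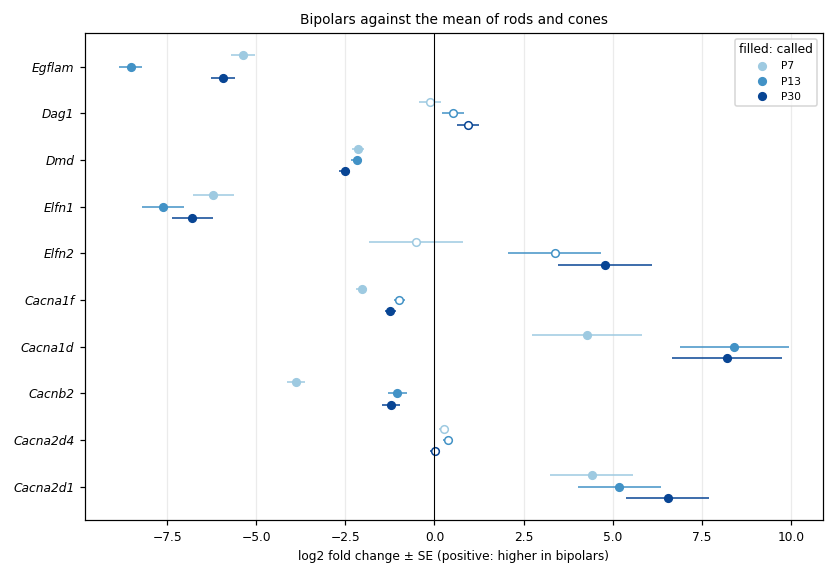
Log2 fold change ± SE of bipolars against averaged rods and cones for the 10 genes at P7, P13 and P30; filled points were called, open points were not. Egflam, Dmd, Elfn1 and Cacnb2 are to the left of 0 and called at all 3 ages, Cacna1d and Cacna2d1 are to the right and called at all 3 ages, and Dag1 and Cacna2d4 are open throughout.

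**Figure D3:**
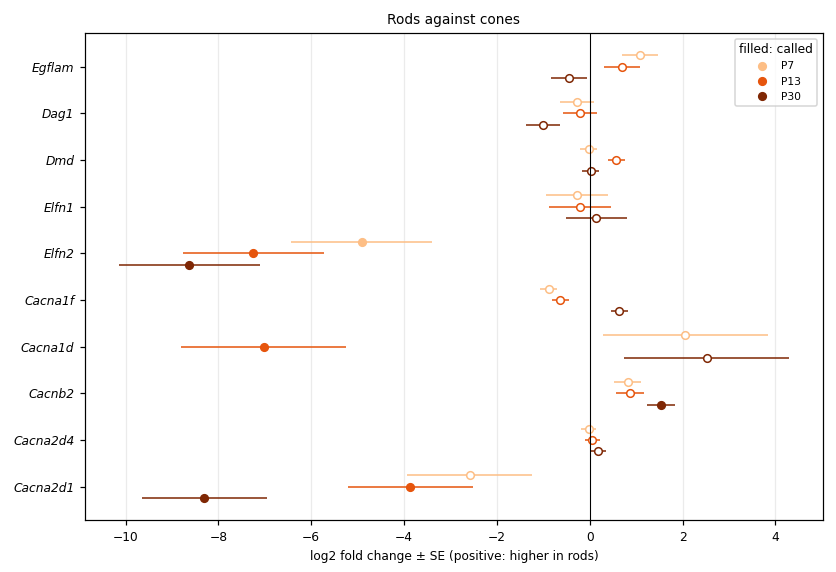
Log2 fold change ± SE of rods against cones for the 10 genes at P7, P13 and P30; filled points were called. Elfn2 is far to the left at all 3 ages, and the long bars of Elfn2, Cacna1d and Cacna2d1 belong to genes with few reads in rods.

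Egflam (ENSMUSG00000042961, chr15:7206120-7398395, GRCm38, minus strand) had 774 and 596 CPM in the rod libraries at P7, 758 and 574 at P13 and 293 and 325 at P30. Cones had 299 and 340 CPM at P7, 411 and 405 at P13 and 313 and 559 at P30. Bipolars had 12.8 and 9.83 CPM at P7, 2.23 and 0.873 at P13 and 6.11 and 5.55 at P30. Every photoreceptor library was thus above every bipolar library at each age, and rods and cones overlapped only at P30. Against photoreceptors, the log2 fold change of bipolars was -5.37 ± 0.33 at P7 (SE, limma adjusted p = 1.05e-08), -8.53 ± 0.33 at P13 (1.04e-10) and -5.94 ± 0.33 at P30 (3.51e-09). Without the first or the second bipolar library at P13, the middle value was -9.20 or -7.86. In rods against cones it was 1.09 ± 0.39 at P7 (adjusted p = 0.0697), 0.69 ± 0.39 at P13 (0.208) and -0.44 ± 0.39 at P30 (0.449), none of them called.

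Rod bipolars had 11.01 and 9.28 CPM of Egflam and cone bipolars 19.0 and 10.03 CPM at P13, and these libraries overlapped. The rod markers summed to 400 to 697 CPM in rod bipolars, 455 to 782 in cone bipolars and 146 to 147 in bipolars at P13. Among these P13 groups, Egflam and rod RNA were both lowest in the bipolars. Bipolars at P7 had 122 to 192 CPM of rod markers, with Egflam at 12.8 and 9.83 CPM against 2.23 and 0.873 CPM in bipolars at P13. The part of rod or cone RNA in the bipolar levels was not tested. In order of mean level, rods at P7 and P13 led with overlapping libraries, then came cones at P30, P13 and P7 and rods at P30, and then cone bipolars, bipolars at P7, rod bipolars, bipolars at P30 and bipolars at P13. Among these neighbours, cones at P30 and P13, cones at P7 and rods at P30, cone bipolars and bipolars at P7, and bipolars at P7 and rod bipolars overlapped.

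Dag1 (chr9:108204634-108263958, minus strand), the receptor for pikachurin, was present in every group at 38.5 to 110.1 CPM in the mean and was called in none of the comparisons. Rods had 76.3 and 95.7 CPM at P7, 67.8 and 74.6 at P13 and 52.1 and 24.9 at P30. Cones had 98.6 and 109.1 CPM at P7, 88.2 and 76.6 at P13 and 113.9 and 45.7 at P30. The rod and cone libraries lay close at P13 and overlapped at P30, where both pairs were wide. Bipolars had 83.9 and 88.1 CPM at P7, 106.9 and 113.3 at P13 and 88.8 and 107.2 at P30. The log2 fold change of bipolars against photoreceptors was -0.13 at P7 (95% interval -0.80 to 0.54), 0.53 at P13 (-0.14 to 1.19) and 0.94 at P30 (0.27 to 1.60, adjusted p = 0.0241), under the threshold of size. With plain totals Dag1 was called higher in bipolars at P13 and P30. The Müller glia markers, 4109 to 6359 CPM in bipolars and 136 to 817 CPM in photoreceptors at P30, moved the same way, and their part was not tested. Rod bipolars had 42.0 and 57.3 CPM and cone bipolars 87.2 and 110.5, which did not overlap, at a log2 fold change of -1.0 ± 0.36 (adjusted p = 0.136). In the order of levels neighbours overlapped except at 2 steps, bipolars at P30 above bipolars at P7 and rods at P13 above rod bipolars.

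Dmd (chrX:82948870-85206141, plus strand) was high in photoreceptors. Rods had 382 and 345 CPM at P7, 687 and 551 at P13 and 659 and 536 at P30, and cones 394 and 342, 452 and 380, and 595 and 575 CPM. Bipolars had 83.3 and 81.3 CPM at P7, 112.8 and 109.8 at P13 and 86.6 and 122.2 at P30. No bipolar library reached the lowest photoreceptor library. Against photoreceptors these gave log2 fold changes of -2.15 ± 0.16 at P7, -2.18 ± 0.16 at P13 and -2.52 ± 0.16 at P30, with limma adjusted p of 7.35e-08, 4.90e-08 and 1.18e-08. Rods and cones overlapped at P7 and P30, and at P13 the log2 fold change was 0.57 ± 0.18 (adjusted p = 0.0322), too small to be called. The counts are per gene, so the short retinal form of dystrophin and the other forms cannot be told apart.

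Within the bipolar types, Dmd was the only one of the 10 genes called between rod bipolars and cone bipolars, a comparison in which 4.68% of all genes were called. Rod bipolars had 54.0 and 48.9 CPM and cone bipolars 204 and 164 CPM, with no overlap. The log2 fold change was -1.83 ± 0.18 (limma adjusted p = 1.66e-05), and it ranged from -1.99 to -1.68 over the 31 alternatives. The 5 rod bipolar markers summed to 7680 to 9112 CPM in rod bipolars and 318 to 451 in cone bipolars. The 5 cone bipolar markers separated the groups less, with 1162 to 1325 CPM in cone bipolars and 458 to 479 in rod bipolars. Müller glia markers, from a cell type that also contains dystrophin, summed to 87.9 to 170 CPM in rod bipolars and 286 to 302 in cone bipolars, and their part in the difference was not tested. In the order of levels the 6 photoreceptor groups came first, with rods at P13 and P30 and cones at P30 overlapping in sequence, and rod bipolars came last without overlap.

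Of 12 other dystrophin-complex proteins tested, 2 were called higher and 3 lower in bipolars than in photoreceptors at P7, 3 and 3 at P13 and 4 and 3 at P30. Of all genes tested, 22.7%, 33.4% and 35.6% were called at these ages. Utrn, which encodes the dystrophin homologue utrophin, was among the higher at P7 and P13, with log2 fold changes of 6.49 ± 1.65 and 6.29 ± 1.65 and mean levels of 45.0 and 48.6 CPM in bipolars. Sntb2, a syntrophin gene whose product docks signalling proteins on dystrophin, was lower in bipolars at all 3 ages, with log2 fold changes of -1.97 ± 0.47, -3.97 ± 0.47 and -3.39 ± 0.47. It was higher in rods than in cones at P13 (1.74 ± 0.54) and P30 (2.77 ± 0.54), from means of 98.5 and 177 CPM in rods and 30.5 and 25.7 CPM in cones. Sgce, the gene of epsilon-sarcoglycan, was lower in rods than in cones at P7, P13 and P30, by -1.90 ± 0.52, -4.60 ± 0.52 and -2.64 ± 0.52. The list's median log2 fold change in bipolars against photoreceptors was -0.35, 1.19 and 1.46 by age. Over the same ages the 5 measured endothelium and pericyte markers summed to 26.3 to 29.7, 79.9 to 92.4 and 363 to 469 CPM in bipolars and to at most 52.0 CPM in photoreceptors, and their part and that of glial RNA in these counts were not tested.

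Dystroglycan binds its ligands through sugars, and 15 of 18 listed glycosylation enzymes were tested. In bipolars against photoreceptors 1 was called higher and 4 lower at P7, and 1 higher and 3 lower at P13 and again at P30, where 22.7%, 33.4% and 35.6% of all genes were called. Pomt2, which with Pomt1 adds the first mannose, was lower at each age (-2.68 ± 0.33, -2.58 ± 0.33 and -1.82 ± 0.33), as was Dpm3, a subunit of the enzyme that makes the mannose donor. Other ligands of dystroglycan went the other way from Egflam: 5, 6 and 8 of 9 tested were called higher in bipolars at P7, P13 and P30, and 0 lower. Among them Nrxn3, a neurexin, had means of 1159, 1454 and 1431 CPM in bipolars, and log2 fold changes of 3.19 ± 0.46, 3.75 ± 0.46 and 5.07 ± 0.46. Agrn, the gene of agrin, was higher in bipolars at P7 and P13 and higher in rods than in cones at P7 (2.36 ± 0.30) and P13 (1.66 ± 0.30). At P30, where Agrn was not among the genes named by size, its means were 191 CPM in bipolars, 21.1 in rods and 13.1 in cones. The part of glial and vessel RNA in the ligand counts of bipolars, with the marker levels given above, was not tested either.

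Elfn1 (chr5:139907943-139974722, plus strand) had 145 and 156 CPM in rods at P7, 128 and 155 at P13 and 176 and 135 at P30. Cones had 171 and 194 CPM at P7, 153 and 172 at P13 and 121 and 160 at P30. Bipolars had 2.47 and 2.03 CPM at P7, 0.630 and 0.921 at P13 and 0.638 and 2.68 at P30. The 12 photoreceptor libraries were all above 120 CPM and no bipolar library passed 5 CPM. Bipolars differed from photoreceptors by a log2 fold change of -6.20 ± 0.58 at P7 (limma adjusted p = 8.54e-07), -7.62 ± 0.58 at P13 (7.48e-08) and -6.80 ± 0.58 at P30 (2.92e-07). Without the first bipolar library at P30 the last value was -5.77, and without the second -7.83.

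Between rods and cones, Elfn1 differed by -0.28 at P7 (95% interval -1.70 to 1.14), -0.20 at P13 (-1.62 to 1.22) and 0.15 at P30 (-1.27 to 1.56), and it was not called at any age. The intervals allow a difference of more than 2-fold in either direction. The spread of Elfn1 at the low levels of the bipolar libraries enters these errors, because 1 variance was fitted over all groups. Rod bipolars had 2.20 and 0.404 CPM and cone bipolars 4.60 and 2.51 CPM. All 6 photoreceptor groups overlapped with their neighbours in the order of levels except the last, cones at P30, which was separate from cone bipolars.

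Elfn2 (chr15:78667331-78718771, minus strand) divided the photoreceptors where Elfn1 did not pass the test. Rods had 0.521 and 0.921 CPM at P7, 0.878 CPM and no read at P13, and 0.0226 CPM (1 read) and no read at P30. Cones had 30.9 and 14.3 CPM at P7, 13.9 and 10.7 at P13 and 7.93 and 4.30 at P30. No rod library reached 1 CPM and no cone library fell under 4 CPM. Rods against cones gave a log2 fold change of -4.91 ± 1.52 at P7 (limma adjusted p = 0.0394), -7.25 ± 1.52 at P13 (0.00268) and -8.63 ± 1.52 at P30 (6.89e-04). These sizes rest on few rod reads: the P7 call was lost in 12 of 22 fits that left out 1 library, and the P13 value was -3.79 without the second rod library and -10.71 without the first. At P30 the pooled reads gave cones 572 times the level of rods, with a 95% interval of 102 to 22648 that covers counting error only. The ON bipolar markers summed to 2.86 to 22.6 CPM in rods and 7.48 to 291 CPM in cones, and the part of bipolar RNA in the cone level of Elfn2 was not tested.

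Bipolars had 3.58 and 1.98 CPM of Elfn2 at P7, 10.04 and 10.4 at P13 and 8.91 and 7.26 at P30, rod bipolars 4.98 and 6.51 and cone bipolars 14.0 and 18.0 at P13. Cones at P7 and cone bipolars held the first places with overlapping libraries, and the rod groups the last places. At P30 the bipolar libraries overlapped with those of cones (7.93 and 4.30 CPM), whereas rods had 1 read in total. Bipolars exceeded the mean of the photoreceptors at that age (log2 fold change 4.78 ± 1.32, limma adjusted p = 0.00854), a size that depends on the low rod level. That call was lost without either bipolar library at P30 (adjusted p = 0.0589 and 0.0535). Rod bipolars and cone bipolars did not overlap, and the log2 fold change was -1.48 ± 1.52 (adjusted p = 0.733). The spread of Elfn2 in the rod libraries enters this error, because 1 variance was fitted over all groups.

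Per kilobase of exon, Elfn1 made up 99.8% or more of the summed level of both Elfn genes in the rod groups and 93.9%, 96.2% and 97.7% in cones at P7, P13 and P30. Its share was 62.0% in bipolars at P7, 12.8% at P13 and 27.0% at P30, and 28.5% and 30.1% in rod and cone bipolars. Both genes were low in the bipolar types, so the shares there rest on few reads, and the libraries of a group were as far apart as 46.2% and 10.8% in rod bipolars. The levels per kilobase were 33.7 to 43.8 CPM for Elfn1 in the photoreceptor groups, against 0.754 to 2.79 CPM for Elfn2 in cones.

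**Figure D4:**
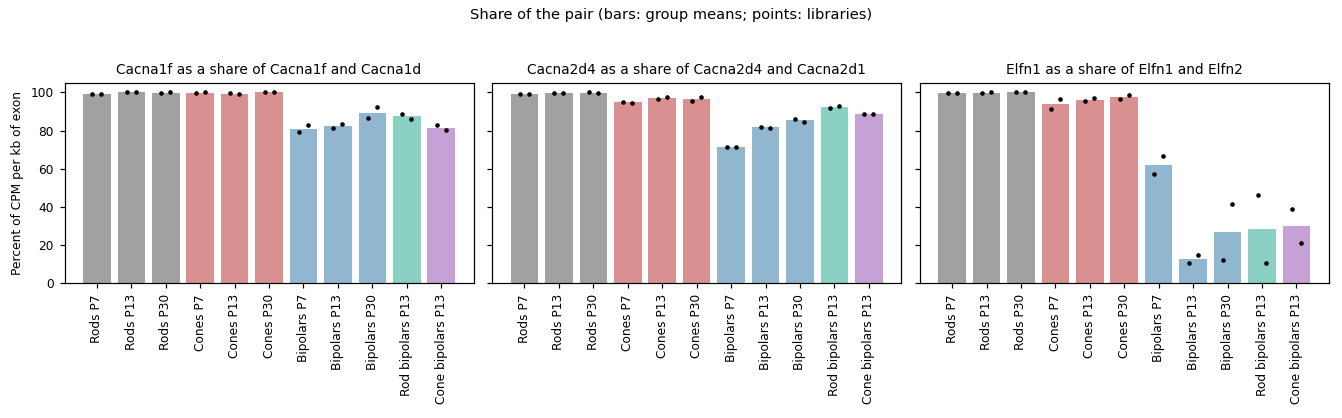
Percent of the summed CPM per kilobase of exon contributed by Cacna1f, Cacna2d4 and Elfn1 within their pairs; bars are group means and points are the 2 libraries. Cacna1f and Cacna2d4 hold over 90% of their pairs in all photoreceptor groups and 71.6% to 92.4% in the bipolar types, and Elfn1 falls to between 12.8% and 62.0% in the bipolar types.

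Genes listed as partners of the Elfn proteins and pikachurin were called in both directions. Of 14 tested, 7 were called higher and 3 lower in bipolars than in photoreceptors at P7, 7 and 5 at P13 and 9 and 4 at P30. Of all genes tested, 22.7%, 33.4% and 35.6% were called at these ages. The list was not confined to genes with more RNA in bipolars. Lrit1, Lrit2 and Lrit3 had higher means in rods and in cones than in bipolars at each age. Lrit3 had 30.7, 35.2 and 16.6 CPM in cones and at most 0.304 CPM in bipolars. Grm6, the glutamate receptor of ON bipolar dendrites and a partner of Elfn1, had means of 1089, 1191 and 1191 CPM in bipolars and log2 fold changes of 12.17 ± 0.72, 11.55 ± 0.72 and 12.38 ± 0.72, sizes that depend on the prior because rods had no read. Gpr179, an orphan receptor that binds pikachurin, had means of 386, 459 and 548 CPM in bipolars and reached 1723 CPM in rod bipolars. Lrit1, a leucine-rich-repeat protein on the same list, had means of 115, 241 and 478 CPM in bipolars and 689 to 1630 CPM in the photoreceptor groups. In bipolars it rose by 1.08 ± 0.22 from P7 to P13. Cones had 16.7, 21.6 and 7.20 CPM at P7, P13 and P30 of Grm6, which is also 1 of the ON bipolar markers. Rgs7, a regulator of G-protein signalling, was lower in rods than in cones at each age, with 118 to 132 CPM in cones and at most 0.387 CPM in the mean in rods.

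Cacna1f (chrX:7607083-7635196, plus strand), the pore of the photoreceptor channel, had 112 and 106 CPM in rods at P7, 154 and 151 at P13 and 389 and 308 at P30. Cones had 216 and 187 CPM at P7, 227 and 246 at P13 and 222 and 222 at P30. Rods were below cones at P7 and P13 and above them at P30, without overlap at any age. For rods against cones it came to a log2 fold change of -0.89 ± 0.18 at P7 (limma adjusted p = 0.00345), -0.63 ± 0.18 at P13 (0.0177) and 0.64 ± 0.18 at P30 (0.0165), each past the threshold of significance and under that of size. The P7 to P30 change was larger in rods than in cones by 1.53 ± 0.25 (adjusted p = 0.00181), the only one of the 10 genes called in that comparison, where 10.6% of all genes were called. It held in all 31 alternatives, between 1.36 and 2.20.

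Bipolars had 35.1 and 36.5 CPM of Cacna1f at P7, 106 and 86.1 at P13 and 114 and 121 at P30. Each bipolar library was below every photoreceptor library of its age. Bipolars against photoreceptors gave a log2 fold change of -2.05 ± 0.16 at P7 (limma adjusted p = 9.71e-08), -0.99 ± 0.16 at P13 (1.34e-04), just under the threshold of size, and -1.24 ± 0.16 at P30 (1.62e-05). With plain totals the P30 value was -0.81 and was not called. Rod bipolars had 277 and 196 CPM and cone bipolars 184 and 153 CPM, both above the bipolars of the same age, and the subtypes did not overlap. Their log2 fold change was 0.47 ± 0.18 (adjusted p = 0.164). Rods at P30 stood first in the order of levels, followed by cones at P13, rod bipolars and cones at P30, which overlapped in turn, and bipolars at P7 stood last.

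Cacna1d (chr14:30039939-30491455, minus strand), the Cav1.3 pore, showed the opposite distribution. Rods had 1.22 and 1.18 CPM at P7, no read in either library at P13 and 0.883 and 0.0186 CPM at P30. Cones had 1.36 and 0.0541 CPM at P7, 0.232 and 3.75 at P13 and no read and 0.0883 CPM (3 reads) at P30. Bipolars had 12.9 and 10.3 CPM at P7, 33.5 and 24.1 at P13 and 24.8 and 14.0 at P30, and rod bipolars and cone bipolars had 49.2 and 43.0, and 53.6 and 52.1 CPM. Every bipolar library was above every photoreceptor library. At P13 the bipolar level was at least 655-fold higher than that of rods, taking 3 reads over the rod group, 0.0440 CPM, as the floor. This bound, like the others given for Cacna1d, covers counting error only and not the spread between libraries. In the same rod group Elfn2 had 25 reads in the first library and none in the second. At P30 the pooled reads gave bipolars 392 times the level of cones (95% counting interval 134 to 1905).

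The fitted log2 fold change of Cacna1d in bipolars against photoreceptors was 4.28 ± 1.54 at P7 (limma adjusted p = 0.0468), 8.42 ± 1.54 at P13 (4.82e-04) and 8.21 ± 1.54 at P30 (5.66e-04), and the sizes at P13 and P30 depend on the small prior added to libraries with no read. The P7 call was lost in 13 of 22 fits that left out 1 library, the P7 value being 3.17 without the second cone library and 5.40 without the first. At P13 the value was 7.43 and 9.41 without the first and the second cone library, and at P30 it ran from 6.93 to 9.48 over the fits without 1 of the 4 photoreceptor libraries. Cones were at least 45.2-fold above rods at P13, but this rests on the second cone library: without it the log2 fold change of rods against cones was -5.04 (adjusted p = 0.112) in place of -7.02 ± 1.78 (0.00890). Rods at P7 were at least 27.4-fold above rods at P13, and that call was lost without the second rod library at P7 (adjusted p = 0.0553). These photoreceptor levels overlapped throughout the lower part of the order.

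Per kilobase of exon, Cacna1f made up at least 99.2% of the summed level of both pore genes in each photoreceptor group. Its share was 81.1%, 82.4% and 89.4% in bipolars at P7, P13 and P30, 87.5% in rod bipolars and 81.5% in cone bipolars. In the bipolar types Cacna1f was thus above Cacna1d per kilobase, at 3.94 against 0.920 CPM at P7 and 12.9 against 1.54 CPM at P30.

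Cacnb2 (chr2:14603088-14987908, plus strand), the beta subunit that brings the pore to the membrane, had 150 and 136 CPM in rods at P7, 228 and 207 at P13 and 346 and 340 at P30. Cones had 98.7 and 66.7 CPM at P7, 127 and 112 at P13 and 76.6 and 184 at P30. Rods were above cones without overlap at each age, and the cone pair was widest at P30. In rods against cones the log2 fold change was 0.82 ± 0.30 at P7 (limma adjusted p = 0.0809), 0.86 ± 0.30 at P13 (0.0447), under the threshold of size, and 1.53 ± 0.30 at P30 (0.00162). Without the first cone library at P30 the last value was 0.89 and was not called, and without the second it was 2.16.

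Bipolars had 6.84 and 7.74 CPM of Cacnb2 at P7, 67.8 and 90.4 at P13 and 81.6 and 91.4 at P30. All were below the photoreceptor libraries at P7 and P13, and at P30 they overlapped with cones. The log2 fold change against photoreceptors was -3.89 ± 0.26 at P7 (limma adjusted p = 2.47e-08), -1.04 ± 0.26 at P13 (0.00496) and -1.22 ± 0.26 at P30 (0.00146). The P13 call was lost without the first cone library (-0.99) or the first bipolar library (-0.83) at that age, and with plain totals (-0.56) and totals without mitochondrial transcripts. The P30 call was lost with plain totals (-0.80) and without the second cone library (-0.91). The P7 to P30 change was larger in bipolars than in photoreceptors by 2.66 ± 0.37 (adjusted p = 2.64e-04), the only one of the 10 called in that comparison, where 11.1% of all genes were called. Rod bipolars (75.0 and 78.0 CPM) and cone bipolars (97.4 and 85.1 CPM) lay with the bipolars of P13 and P30, and the log2 fold change between them was -0.25 ± 0.30 (adjusted p = 0.781).

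Cacna2d4 (chr6:119236526-119352407, plus strand), the alpha-2-delta subunit of the photoreceptor channel, was called in none of the comparisons. Rods had 469 and 443 CPM at P7, 613 and 565 at P13 and 786 and 606 at P30, and cones 470 and 453, 575 and 560, and 682 and 543 CPM. Bipolars had 598 and 513 CPM at P7, 707 and 804 at P13 and 630 and 676 at P30. The log2 fold change of rods against cones was -0.02 at P7 (95% interval -0.36 to 0.32), 0.05 at P13 (-0.29 to 0.39) and 0.18 at P30 (-0.16 to 0.52). Against photoreceptors bipolars differed by 0.27 (-0.02 to 0.57), 0.38 (0.09 to 0.68, adjusted p = 0.0379) and 0.01 (-0.29 to 0.31) by age. The intervals hold no difference of 2-fold in either of these comparisons.

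The highest levels of Cacna2d4 were in the bipolar subtypes, with 1429 and 1342 CPM in rod bipolars and 1114 and 933 in cone bipolars. Both subtypes were above every library of the other 9 groups and did not overlap with each other, at a log2 fold change of 0.44 ± 0.16 (limma adjusted p = 0.139). The difference between the subtypes and the bipolars of P13 was not tested. In the rest of the order neighbours overlapped except for bipolars and cones at P7.

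Cacna2d1 (chr5:15934691-16374511, plus strand), the alpha-2-delta-1 subunit, was the one of the pair of alpha-2-delta members that was called. Rods had 5.56 and 5.50 CPM at P7, 2.00 and 1.26 at P13 and no read and 1.06 CPM at P30. Cones had 32.7 and 33.6 CPM at P7, 29.0 and 18.6 at P13 and 41.4 and 18.8 at P30. Bipolars had 310 and 266 CPM at P7, 205 and 239 at P13 and 133 and 162 at P30. The 3 cell types stood in the order bipolars, cones, rods at each age without overlap. The log2 fold change of bipolars against photoreceptors was 4.41 ± 1.17 at P7 (limma adjusted p = 0.00962), 5.18 ± 1.17 at P13 (0.00244) and 6.55 ± 1.17 at P30 (3.82e-04). The P7 call was lost without either bipolar library of that age (adjusted p = 0.0770 and 0.0651), and the P30 value was 4.75 without the first rod library and 8.35 without the second.

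In rods against cones the log2 fold change of Cacna2d1 was -2.58 ± 1.35 at P7 (limma adjusted p = 0.233), -3.87 ± 1.35 at P13 (0.0458) and -8.31 ± 1.35 at P30 (3.54e-04). As 1 variance was fitted over all groups, the wide spread of the rod libraries at P30 enters the P7 error. Cacna2d1 was called lower in rods at P7 with only the groups compared, a pseudocount of 0.5 or voom. The P13 call was lost in 18 of 22 fits that left out 1 library, with values from -4.20 to -3.53. At P30 the value was -4.71 without the first rod library, which had no read, and -11.91 without the second. The ON bipolar markers were higher in cones than in rods at P7 and P13. At P30 they overlapped, at 7.48 to 80.6 CPM in cones and 2.86 to 7.49 CPM in rods. As for Elfn2, the part of bipolar RNA in the cone level of Cacna2d1 was not tested. Rod bipolars had 171 and 129 CPM and cone bipolars 182 and 157 CPM, which overlapped (log2 fold change -0.18 ± 1.35, adjusted p = 0.984). Per kilobase of exon, Cacna2d4 made up 99.1% to 99.9% of the summed level of both alpha-2-delta genes in rods, 94.8% to 96.9% in cones, 71.6%, 81.7% and 85.3% in bipolars at P7, P13 and P30, 92.4% in rod bipolars and 88.8% in cone bipolars.

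Of 18 other subunits tested, 11, 13 and 15 were called higher in bipolars than in photoreceptors at P7, P13 and P30, and 0 lower. In these comparisons 22.7%, 33.4% and 35.6% of all genes were called, and the median log2 fold change of the 18 was 4.50, 4.41 and 5.52. Sizes depend on the prior where photoreceptors had few or no reads, as for Cacng5 and Cacna1i (0 CPM in rods at P7) and Cacna2d3 (0 CPM in rods at P13). The 6 amacrine markers summed to 176 to 247, 122 to 344 and 485 to 605 CPM in bipolars at these ages and to at most 104 CPM in photoreceptors, and the Müller glia markers to 4109 to 6359 CPM in bipolars at P30; their part in these counts was not tested. Cacna2d3, a further alpha-2-delta gene, was higher at P7 (6.20 ± 1.19) and P13 (9.13 ± 1.19), from 16.9 CPM in bipolars at P7 to 165 at P13, 946 at P30 and 1999 in rod bipolars. At P30, where Cacna2d3 was not among the genes named by size, rods had a mean of 2.07 CPM and cones 15.3 CPM. Cacna1i, a T-type pore, was higher at each age, with 9.19, 24.5 and 25.6 CPM in bipolars. In rods against cones 6, 4 and 3 of the 18 were called lower and 0, 0 and 1 higher. Of all genes 12.8%, 21.2% and 20.0% were called there, so the counts at P13 and P30 were near the share of all genes. Cacna1h, another T-type pore, had less RNA in rods than in cones at P7, P13 and P30 (-6.79 ± 0.79, -6.42 ± 0.79 and -8.93 ± 0.79), with 73.4, 53.8 and 29.2 CPM in cones, and lower in rod bipolars than in cone bipolars (-4.43 ± 0.79).

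All 17 proteins listed as partners of the channel in the terminal were tested, and 6, 9 and 10 of them were called higher in bipolars than in photoreceptors at P7, P13 and P30, with 2, 3 and 2 lower. Of all genes tested, 22.7%, 33.4% and 35.6% were called in these comparisons. Cabp4, a calcium sensor that binds Cav1.4, was lower in bipolars at each age (-9.60 ± 0.66, -10.44 ± 0.66 and -7.53 ± 0.66), at 0.0981, 0.339 and 1.67 CPM there, and it rose in rods from 47.5 CPM at P7 to 315 at P13 (2.73 ± 0.76). Cabp5, a related sensor, was lower in rods than in cones at each age, with 211, 283 and 291 CPM in cones and at most 1.13 CPM in the mean in rods. Rims1, a scaffold of the release site, had 223 CPM in bipolars at P7 and 0.197 and 3.02 CPM in rods and cones, a log2 fold change of 9.73 ± 1.84. That size depends on the low rod level, and the mean of Rims1 in bipolars was lower at P13 (98.0 CPM) and P30 (20.2 CPM). Slc17a7, the vesicular glutamate transporter, was lower in rods than in cones at P7 (-1.05 ± 0.16) and P30 (-1.09 ± 0.16).

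The age steps set P13 against P7 and P30 against P13 within each cell type. In rods 1 of 10 was called from P7 to P13, where 12.6% of all genes were called, and 2 of 10 from P13 to P30, where 12.0% were. The first was Cacna1d, which fell by 7.38 ± 1.78 to no read (0.0108), described above, and the others were Cacna1f, which rose by 1.18 ± 0.18 from P13 to P30 (limma adjusted p = 5.70e-04), and Cacna2d1, which fell by 4.18 ± 1.35 (0.0481). The call of Cacna2d1 was lost in 19 of 22 fits that left out 1 library, and without the first rod library at P30 the value was -0.58. Egflam in rods had a log2 fold change of -1.10 ± 0.39 from P13 to P30 (adjusted p = 0.0673), and its libraries did not overlap. Dmd in rods was higher at P13 than at P7 by 0.76 ± 0.18 (0.011), under the threshold of size. Cones had 0 of 10 called in either step, where 0.440% and then 3.20% of all genes were called.

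Bipolars changed most between P7 and P13, where 3 of 10 genes were called against 2.98% of all genes. Cacnb2 rose by 3.43 ± 0.30 (limma adjusted p = 6.19e-06) and Cacna1f by 1.42 ± 0.18 (1.93e-04), and both calls held in all 31 alternatives. Egflam fell by 3.0 ± 0.39 (2.03e-04), with values of -3.68 and -2.33 without the first and the second bipolar library at P13, and with voom on the recovered reads this call was lost (adjusted p = 0.339). From P13 to P30, 1 of 10 was called against 1.86% of all genes, and this was Egflam, which rose by 2.05 ± 0.39 (0.0101). That call was lost without the second bipolar library at P13 (1.38, adjusted p = 0.174) or at P30 (2.12, 0.0796). In the same step the rod markers in bipolars went from 146 to 147 CPM to 285 to 297 CPM. The cone markers went from 114 to 129 CPM to 427 to 443 CPM. At P7, before the fall, bipolars had 122 to 192 CPM of rod markers and 136 to 142 CPM of cone markers. The part of rod and cone RNA in the fall and in the rise was not tested. Both steps share the libraries of P13, where Egflam was lowest.

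**Figure D5:**
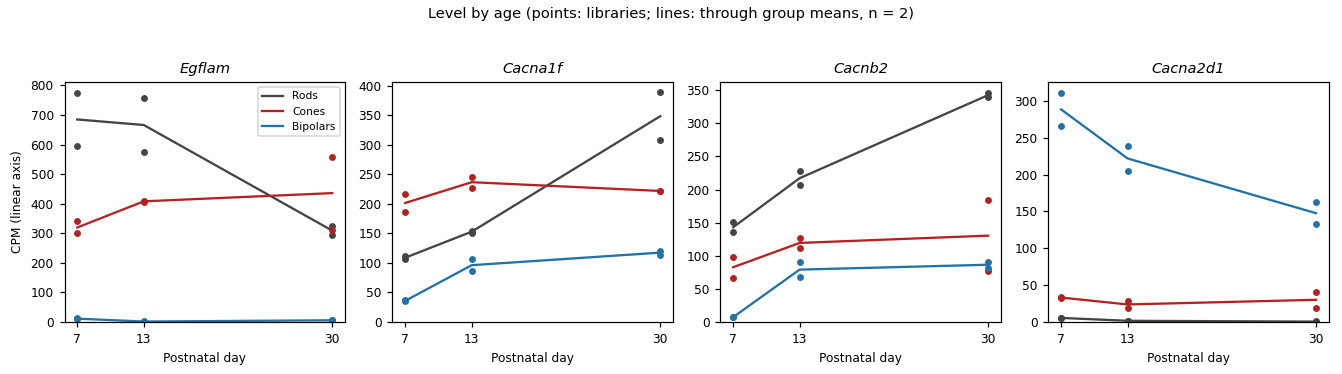
CPM (linear axis) of Egflam, Cacna1f, Cacnb2 and Cacna2d1 by postnatal day in rods, cones and bipolars; points are libraries and lines join means of 2 libraries. Cacna1f in rods ends at a mean of 348 CPM, above the 222 CPM of cones, and Cacnb2 in bipolars goes from 7.29 to 79.1 CPM between P7 and P13.

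The genes most like each member were sought by Pearson correlation over the 11 group means of log2 CPM among 11430 genes, as a description without a test. Egflam was closest to Casz1 (r = 0.991), Nxnl2 (0.988) and Impg2 (0.988), the last a proteoglycan of the matrix around photoreceptors. Elfn1 was closest to C2cd2l (0.990), Wdr31 (0.988) and Sec22b (0.987). Elfn2 was closest to Arhgef4 (0.987), Atp6v0a1 (0.985) and Sv2a (0.981), the last a synaptic vesicle protein. Cacna1f was closest to Fam3a (0.958), and Cacnb2 to Arhgap24 (0.963), with Slc24a1, the cation exchanger of rod outer segments, in its first 3 (0.932). Cacna1d was closest to Tle6 (0.977) and Cacna2d1 to Tcaf1 (0.996), both patterns that separate bipolar from photoreceptor groups. Dmd was closest to Wwc2 (0.976) and Mak (0.971), a kinase of the photoreceptor cilium, Dag1 to Fam19a5 (0.957) and Cacna2d4 to Rnf20 (0.955). The 11 means share the same 22 libraries and their scaling.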

How the data were processed

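RNA of 22 libraries was isolated from sorted cells, amplified linearly and sequenced, per the labels' protocols. STAR, edgeR and the GRCm38 (mm10) build are named in the submitters' processing notes; the counting program, the annotation and all versions were not stated. The authors deposited 1 table of log2 CPM for 13812 genes, 27 of them without a symbol in GENCODE M21. Every value was a whole read count (100.0% within 0.0100 of a whole number) divided by a library size 0.608 to 1.23 times the total, with a floor of -7.10 where there was no read. These log2 values were fitted with limma 3.58.1 in R 4.3.3, with 1 coefficient per group over all 22 libraries (11 residual degrees of freedom) and an intensity trend. Genes with log2 CPM of at least 0 in both libraries of 1 or more groups were tested, 13405 in all, and p-values were adjusted by the Benjamini-Hochberg method over these in each of 15 comparisons, which share libraries. Amplification and library scaling can shift levels between libraries, and bounds and counting intervals cover counting error only.

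The 10 genes and the lists of related genes were chosen with earlier results of these data known. By rule the 10 were described at every comparison, at most 4 called genes were named per list and comparison by size, and the 3 best correlated genes were sought for each member. Listed genes without a match in the table were not analysed here, and some results on related genes are not reported here. CPM per kilobase used the union of annotated exons. Alternatives were other sample sets, filters, a pseudocount of 0.5 CPM, scalings, weights, voom on the recovered reads, a replicate block and leaving out each library.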

Additional observations from a re-analysis of the deposited data

Results flagged for a closer look

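A difference between cell types in the change from P7 to P30 was tested for each of the 10 genes in 2 comparisons. In rods against cones 1 of 10 was called, against 10.6% of all genes. In bipolars against photoreceptors 1 of 10 was called, against 11.1% of all genes. Both counts were near the share of all genes. Cacna1f went from 109 to 348 CPM in rods and from 201 to 222 CPM in cones (means of 2 libraries), so its log2 change was larger in rods by 1.53 ± 0.25 (SE, limma adjusted p = 0.00181). Both rod libraries were below both cone libraries at P7 and above them at P30. Cacnb2 went from 7.29 to 86.5 CPM in bipolars, from 143 to 343 CPM in rods and from 82.7 to 130.5 CPM in cones, so its log2 change was larger in bipolars than in the mean of photoreceptors by 2.66 ± 0.37 (limma adjusted p = 2.64e-04). Both bipolar libraries were higher at P30 than at P7.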

How the results depend on the processing

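The 38 calls on single genes kept their direction in all 1178 values under 31 alternatives each, and 103 values lost the call, 74 of them in the 836 fits without 1 library. In 21 of the 38 no alternative lost the call. Restricting the fit to the groups compared lost 9 calls, array weights 5, plain totals 4, a pseudocount of 0.5 and voom 3 each, totals without mitochondrial transcripts 2, and both other filters 0. Plain totals moved the median of all genes by -0.41 to 0.65 on the log2 scale, by 0.60 for rods against cones at P30 and by 0.47 and 0.42 for bipolars against photoreceptors at P13 and P30. Causes were not tested.

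For rods against cones at P7 the count of genes called, 1 as reported, was 3 with only the groups compared, a pseudocount of 0.5 or voom. At P13, 3 as reported, it was 0 with only the groups compared and 1 with array weights, and at P30, 3 as reported, 1 with only the groups compared. For rods from P7 to P13, 1 as reported, it was 0 with only the groups compared or array weights. For rods from P13 to P30, 2 as reported, it was 0 with only the groups compared or array weights and 1 with plain totals, totals without mitochondrial transcripts or the replicate block. With either scaling this left 1 higher and 0 lower in place of 1 and 1. For bipolars from P7 to P13, 3 as reported, it was 5 with only the groups compared or array weights, and from P13 to P30, 1 as reported, 0 with only the groups compared or voom, where Egflam from P7 to P13 was also lost (adjusted p = 0.34). For rod against cone bipolars, 1 as reported, it was 2 with only the groups compared or array weights. For the change in rods against cones, 1 as reported, it was 2 with a pseudocount of 0.5 and 3 with voom. For the change in bipolars against photoreceptors, 1 as reported, it was 2 with only the groups compared, a pseudocount of 0.5 or voom and 3 with plain totals or array weights. Totals without mitochondrial transcripts gave 3 higher and 3 lower for bipolars against photoreceptors at P13, against 2 and 4.

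Without 1 library, the counts ran from 0 to 2, 1 to 3 and 2 to 4 for rods against cones at P7, P13 and P30, and from 5 to 7, 6 to 7 and 7 to 9 for bipolars against photoreceptors. They ran from 0 to 2 and 1 to 3 for the steps in rods, 0 to 0 and 0 to 1 in cones, 3 to 3 and 0 to 1 in bipolars, 1 to 2 between bipolar subtypes, and 1 to 3 and 1 to 2 for the changes. The count for rods against cones at P13 was 1 without the second cone library, and the change in rods against cones was 3 without the second cone library at P30. Where a group was left with 1 library, it was assumed to vary like the other groups.

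No common pairing by replicate number was seen: over 55 pairs of groups, deviations of libraries with the same number correlated between -0.181 and 0.207, and 5 of 55 passed 0.1. This check cannot exclude that the libraries of some groups were paired. With the replicate block 35 of 38 calls remained, and the counts were 1, 2 and 3 for rods against cones and 6, 7 and 8 for bipolars against photoreceptors. Using the longest transcript for length moved 77 of 110 levels per kilobase and shifted shares by at most 0.740 points. Libraries with no read limit the sizes given for Elfn2, Cacna1d and Cacna2d1.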
